A study of Saccharomyces cerevisiae with 12 samples.

Results

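Heat shock proteins, chaperones and their co-chaperones were followed as a group of 41 budding yeast genes, picked by systematic name out of the 7126 genes with a value in each library. They fall into 12 roles: small heat shock proteins, disaggregases, Hsp90, the SSA family of cytosolic Hsp70, ribosome-bound chaperones, Hsp70 exchange factors, J-proteins, mitochondrial chaperones, Hsp90 co-chaperones, sorting factors, the regulator HSF1 and the chaperonin CCT. All 41 were above 0 in every library, from 49.96 to 9922 FPKM (fragments per kilobase of gene, scaled to the fragments mapped in the library), and all 41 passed the filter on low values.

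RNA sequencing compared Saccharomyces cerevisiae strain MP 384, labelled MATa, with strain LBHY29, labelled MATα-playing-a, each without pheromone and after 2 h with 10 nM α-factor. There were 3 biological replicates in each of the 4 groups. All cultures grew to log phase at 30 °C in YPD, a rich glucose medium, with 0.1% BSA, and the unstimulated cells were a 10 mL harvest taken before the pheromone went into what was left of the culture. No culture without pheromone was kept for the further 2 h, so the pheromone and the longer growth cannot be told apart here. The labels name 1 strain for each mating background and list no other alleles, so a strain difference is a difference between MP 384 and LBHY29.

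Mating-type genes separated the strains. STE2, the α-factor receptor, stood at 3674 ± 462 FPKM in unstimulated MATa cells and at 565 ± 62.1 in unstimulated MATα-playing-a cells. The a-cell adhesin gene AGA2 was listed at 0 in every unstimulated MATα-playing-a library, and BAR1, for the secreted α-factor protease, was at 0 in all 6 MATa libraries. STE3, the a-factor receptor, was listed at 0 in all 6 MATα-playing-a libraries, while SAG1, the α-cell agglutinin, stood at 1366 ± 149 FPKM in unstimulated MATα-playing-a and 110.4 ± 10.5 in unstimulated MATa. The α-factor genes MF(ALPHA)1 and MF(ALPHA)2 went the other way from SAG1. They were at 6.70 ± 2.67 and 78.8 ± 0.96 FPKM in unstimulated MATa and at 0 in all 6 MATα-playing-a libraries. MFA1, an a-factor gene, was at 7573 ± 1881 in unstimulated MATa and 3313 ± 495 in unstimulated MATα-playing-a. The response itself was present in both strains: FUS1, a cell fusion gene, was at 156 to 196 FPKM before and 3017 to 3219 after in MATa, and at 99.7 to 129.6 before and 2993 to 3058 after in MATα-playing-a. The files hold no read counts, so depth is unknown, and between 574 and 752 genes were listed at 0 per library. FPKM values are relative to the other RNA of a library, so less of one RNA per cell and more of the others cannot be told apart. They are not shares of a common total here, since their sum differed between libraries and was lower with α-factor in both strains.

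Chaperones bind unfolded proteins and help them fold, keep them from clumping, or pull them out of aggregates. Hsp70 proteins do this in cycles of ATP hydrolysis, in which J-proteins deliver clients and exchange factors release them, and Hsp90 takes over later steps with its own co-chaperones. In yeast many of these genes are under the heat shock factor Hsf1, some also under the general stress factors Msn2 and Msn4, while the ribosome-bound chaperones are known to be regulated together with ribosomal protein genes. Hsp90 and the Ydj1 J-protein are also known to support the mating pathway's kinases.

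With α-factor part of the group moved by role: small heat shock proteins, disaggregases and sorting factors rose in both strains, and ribosome-bound chaperones and CCT fell in both. Hsp90, exchange factors and J-proteins had members called in both directions in each strain, and the SSA genes did so in MATα-playing-a. In MATa, 15 of the 41 genes rose, 15 fell and 11 did not pass the test (limma on log2(FPKM + 1), Benjamini-Hochberg adjusted p below 0.05 over 6608 genes). Of all genes tested, 28.5% rose and 38.1% fell, 66.6% in all, so the count of called members was close to the background. In MATα-playing-a, 15 rose, 19 fell and 7 did not pass, against 29.8% and 39.1% of all genes, 68.9% together. The same 14 genes rose in both strains and the same 15 fell in both. The median log2 change of the members was 0.10 in MATa and -0.029 in MATα-playing-a, beside -0.095 and -0.10 over all genes. A rise of at least 2-fold was called for 10 members in MATa, where 9.78% of all genes rose so far, and for 9 in MATα-playing-a, where 11.2% did. SNL1 in MATa was the single fall of 2-fold or more (7.55% of all genes fell so far in each strain). Stimulated and unstimulated values did not overlap for 17 higher and 15 lower members in MATa (30.1% and 39.4% of all genes) and for 14 and 19 in MATα-playing-a (32.0% and 41.6%). p-values here measure the spread between the replicate cultures of these 2 strains.

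**Figure D1:**
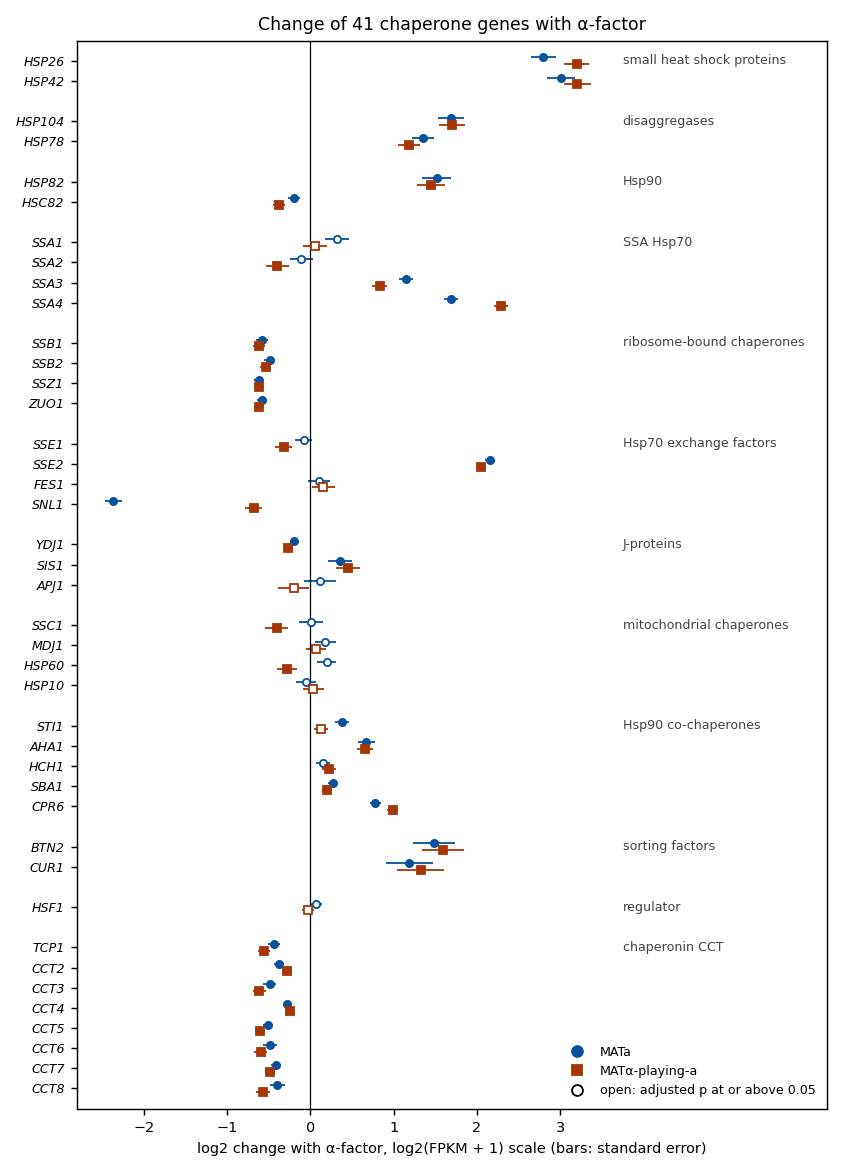
Change of each of the 41 genes with α-factor, as the log2 change with its standard error on the log2(FPKM + 1) scale (3 against 3 libraries), for MATa (circles) and MATα-playing-a (squares), grouped by role. Filled symbols passed the test; the small heat shock proteins lie between 2.79 and 3.20, the CCT subunits and ribosome-bound chaperones between -0.24 and -0.62, and SNL1 at -2.37 in MATa against -0.68 in MATα-playing-a.

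Promoters of the members were read from the R64 reference, in the 500 bases before each start codon. The binding letters of Hsf1 were taken as GAA, TTC and GAA with any 2 bases between neighbours, or the reverse complement, so that matches on the 2 strands can overlap. They were found at 13 of 41 members (31.7%) and at 89 of 6006 promoters of all genes (1.48%). The letters of the stress response element bound by Msn2 and Msn4, AGGGG on either strand, were found at 14 members (34.1%) and likewise at 34.1% of all promoters. The pheromone response element TGAAACA on either strand was found at 1 member, HSP78 (2.44%), and at 722 of all promoters (12.02%). Both AGGGG and the heat shock letters stood before HSP42, HSP104, HSP78 and SSA1, 9.76% of the members beside 0.483% of all promoters. A match is a string of letters and not a measured binding site. Only these exact letters and spacings were sought, so a gene without a match may still have a binding site of another form.

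The small heat shock proteins Hsp26 and Hsp42, which hold unfolding proteins in reserve without using ATP, showed the highest fold rises of the group in both strains. HSP26 (YBR072W, chromosome II, 382030 to 382674) measured 49.96, 71.2 and 67.0 FPKM in unstimulated MATa and 460.5, 498 and 362 in stimulated MATa. In MATα-playing-a it went from 56.2, 57.9 and 56.6 to 539, 599 and 462. No stimulated library came within 5-fold of an unstimulated one of the same strain. The log2 change of HSP26 was 2.79 ± 0.15 in MATa (adjusted p = 3.36e-08) and 3.20 ± 0.15 in MATα-playing-a (1.14e-08).

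HSP42 (YDR171W, chromosome IV, 806621 to 807748) was at 84.7, 101 and 65.9 FPKM in unstimulated MATa and at 667, 683 and 669 after α-factor. In MATα-playing-a the values were 98.9, 68.0 and 65.0 before and 710.4, 701 and 709 after. The 6 stimulated libraries lay close together, between 667 and 710 FPKM, while the unstimulated ones spread from 65.0 to 101. HSP42 rose by 3.01 ± 0.16 in MATa and by 3.20 ± 0.16 in MATα-playing-a on the log2 scale (adjusted p = 3.66e-08 and 2.1e-08). The stretches before both genes are given to show their AGGGG letters (CCCCT on the other strand) and, in HSP42 alone, the heat shock letters, all in capitals; they span chrII:381541-381718, plus strand, and chrIV:806368-806453, plus strand (R64, 5′ to 3′ toward the gene).
HSP26: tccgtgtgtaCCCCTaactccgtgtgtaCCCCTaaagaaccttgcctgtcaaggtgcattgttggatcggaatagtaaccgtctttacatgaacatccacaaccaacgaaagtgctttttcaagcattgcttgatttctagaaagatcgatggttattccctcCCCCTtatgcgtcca
HSP42: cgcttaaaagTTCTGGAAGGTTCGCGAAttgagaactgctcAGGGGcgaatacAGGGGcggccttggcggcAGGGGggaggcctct

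The disaggregases, ring-shaped ATPases that pull proteins out of aggregates, both rose. HSP104, the cytosolic one (YLL026W, chromosome XII, 88623 to 91349), was at 436, 436 and 309.7 FPKM in unstimulated and 1316, 1231 and 1222 in stimulated MATa cells. MATα-playing-a gave 445, 302 and 346 before and 1181, 1067 and 1268 after. The lowest stimulated library, at 1067 FPKM, was above the highest unstimulated one, at 445. Its log2 change was 1.69 ± 0.15 and 1.70 ± 0.15 (adjusted p = 2.17e-06 and 2.02e-06).

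HSP78, the mitochondrial disaggregase (YDR258C, chromosome IV, 971808 to 974243), went from 183, 165 and 139.5 to 431, 402 and 407 FPKM in MATa. In MATα-playing-a it went from 202, 137 and 149.5 to 362, 357 and 382. Groups did not overlap in either strain, and in MATα-playing-a the unstimulated replicate 1 was the highest of its group. HSP78 rose by 1.35 ± 0.13 in MATa and 1.18 ± 0.13 in MATα-playing-a (adjusted p = 4.05e-06 and 1.1e-05). Before both genes the heat shock letters lie upstream of 3 AGGGG matches, a layout shown here with matches in capitals (chrXII:88311-88465, plus strand, and chrIV:974359-974500, minus strand, R64).
HSP104: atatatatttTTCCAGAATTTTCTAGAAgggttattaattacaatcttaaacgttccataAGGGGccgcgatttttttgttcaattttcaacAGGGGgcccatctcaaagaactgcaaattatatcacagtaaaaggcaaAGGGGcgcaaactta
HSP78: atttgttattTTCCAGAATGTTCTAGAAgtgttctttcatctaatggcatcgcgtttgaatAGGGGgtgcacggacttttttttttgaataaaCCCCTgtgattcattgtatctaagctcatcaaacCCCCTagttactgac

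**Figure D2:**
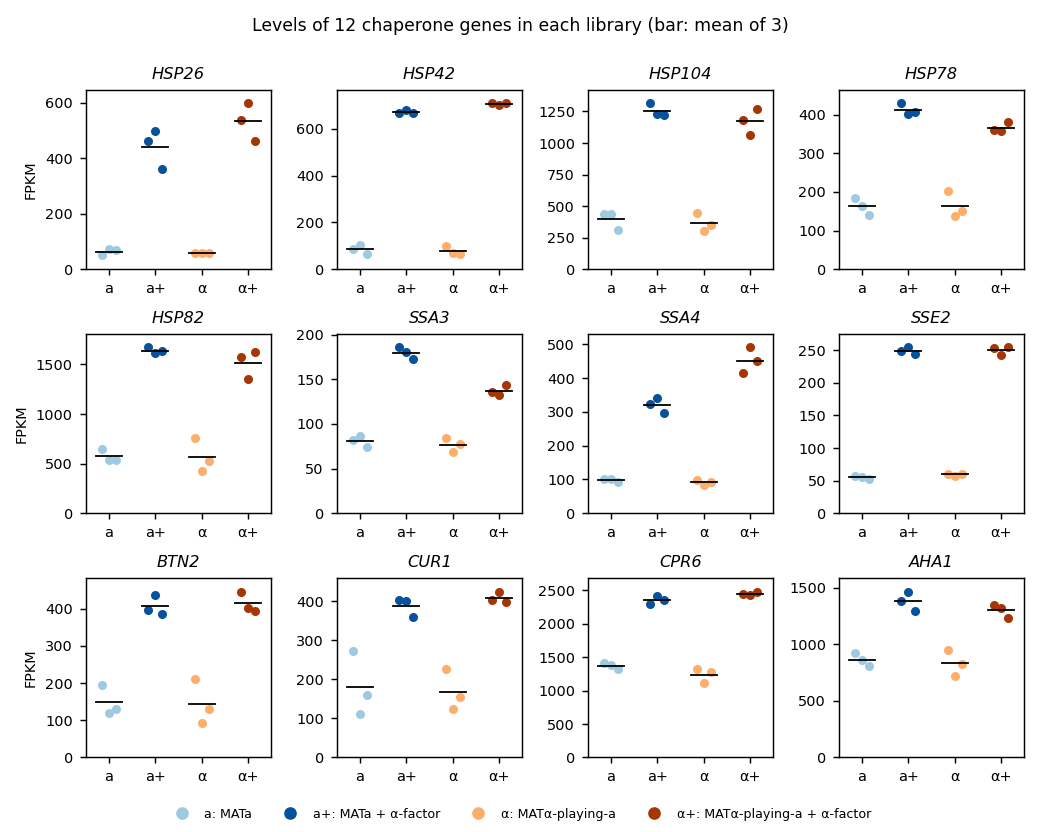
FPKM of 12 chaperone and co-chaperone genes in each library (points) with the mean of 3 (bar), on linear axes from 0; a is MATa, α is MATα-playing-a, and + is 2 h with 10 nM α-factor. In each panel the stimulated libraries of a strain lie above its unstimulated ones; SSA4 reached 414 to 491 FPKM in MATα-playing-a against 298 to 341 in MATa, and SSA3 the reverse order.

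Hsp90, the chaperone of kinases and receptors, has a stress-inducible form, HSP82, and a constitutive form, HSC82, that share 92.4% of aligned coding bases, so reads could be split wrongly between them. HSP82 (YPL240C, chromosome XVI, 96496 to 98625) was at 651, 539 and 537 FPKM in unstimulated and 1672, 1614 and 1633 in stimulated MATa. The MATα-playing-a values were 756, 423 and 529 before and 1570.1, 1354 and 1629 after. It rose in both strains without overlap, by 1.51 ± 0.17 and 1.45 ± 0.17 (adjusted p = 1.13e-05 and 1.55e-05).

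HSC82 (YMR186W, chromosome XIII, 632355 to 634472) had the higher FPKM of the pair, at 6798, 6724 and 6393 FPKM in unstimulated MATa and 5968, 5401 and 6069 in stimulated. MATα-playing-a cells had 6741, 6227 and 6765 before and 5034, 4709 and 5517 after. It was called lower in both strains, at -0.19 ± 0.072 in MATa (adjusted p = 0.033) and -0.37 ± 0.072 in MATα-playing-a (0.000693), but with quantile normalisation the MATa value was 0.073 (adjusted p = 0.477) and the call in MATα-playing-a was lost (0.064). The call in MATa was also lost with median-ratio rescaling (0.228) and without unstimulated replicate 1, unstimulated replicate 2 or stimulated replicate 2 of MATa (adjusted p = 0.0888, 0.0787 and 0.133). As a share within each library, HSP82 went from 8.66% ± 0.811 (SD, n = 3) of the HSC82 value to 28.3% ± 1.51 in MATa, and from 8.61% ± 2.31 to 29.8% ± 1.246 in MATα-playing-a. Summed Hsp90 FPKM was 7214 ± 263 before and 7453 ± 380 after in MATa, and 7147 ± 442 before and 6604 ± 542 after in MATα-playing-a, with overlap in both.

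Among the 4 SSA genes, which encode the main cytosolic Hsp70, the stress-inducible SSA3 and SSA4 rose in both strains, and SSA1 and SSA2 were not called higher in either. SSA4 (YER103W, chromosome V, 364589 to 366517), a stress-inducible gene, was at 101, 102 and 93.0 FPKM in unstimulated and 324, 341 and 298 in stimulated MATa. In MATα-playing-a it was at 97.02, 84.2 and 93.4 before and 414, 491 and 450.1 after. The unstimulated ranges of the strains overlapped and the stimulated ones did not, with MATα-playing-a higher. SSA4 rose by 1.69 ± 0.084 in MATa (adjusted p = 1.9e-08) and by 2.29 ± 0.084 in MATα-playing-a (1.6e-09).

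SSA3 (YBL075C, chromosome II, 84499 to 86448), which together with SSA4 forms the stress-inducible pair, was at 81.7, 86.4 and 74.5 FPKM before and 186, 181 and 173 after in MATa. In MATα-playing-a the values were 83.8, 68.7 and 77.7 before and 135, 132 and 143 after. Here the stimulated MATa libraries were the higher ones. SSA3 rose by 1.14 ± 0.085 and 0.83 ± 0.085 (adjusted p = 4.6e-07 and 5.39e-06).

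SSA2 (YLL024C, chromosome XII, 95566 to 97485), the most abundant SSA gene, was at 7051, 8844 and 8238 FPKM in unstimulated MATa and 6877, 7245 and 8220.0 in stimulated. MATα-playing-a gave 8124, 7632 and 8205 before and 6952, 4741 and 6734 after, with stimulated replicate 2 far below the others. It did not pass the test in MATa (-0.11 ± 0.14, adjusted p = 0.505) and was called lower in MATα-playing-a (-0.40 ± 0.14, 0.023), a call lost with quantile normalisation (0.714), with median-ratio rescaling (0.0737), when only the compared libraries were fitted (0.0543) and without stimulated replicate 2 (0.0794), unstimulated replicate 1 (0.0568) or unstimulated replicate 3 (0.0613).

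SSA1 (YAL005C, chromosome I, 139503 to 141431), 96.8% identical to SSA2 in coding bases and overlapping the listed gene YAL004W, was at 2917, 3697 and 3546 FPKM before and 3781, 4218 and 4688 after in MATa. The MATα-playing-a values were 3649, 3188 and 3406 before and 4065, 2794 and 3891 after. The MATa groups did not overlap, yet the test was not passed in either strain (0.32 ± 0.14, adjusted p = 0.0656; 0.053 ± 0.14, 0.758). In MATa it was passed with quantile normalisation (0.0113), with median-ratio rescaling (0.0249), without stimulated replicate 1 of MATa (0.0477) and without stimulated replicate 2 of MATα-playing-a, which enters the shared spread (0.0191). Relative to the mean, the ratio of the pair was tighter than either gene, except in unstimulated MATα-playing-a, where SSA2 was tighter. SSA1 was 41.4, 41.8 and 43.0% of SSA2 in unstimulated and 55.0, 58.2 and 57.0% in stimulated MATa. In MATα-playing-a it was 44.9, 41.8 and 41.5% and 58.5, 58.9 and 57.8%. The ratio was thus higher in each of the 6 stimulated libraries than in each of the 6 unstimulated ones, and replicate 2, low for both genes, did not stand apart in it.

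SSA4 went from 1.24% ± 0.166 to 4.35% ± 0.628 of the SSA2 value in MATa and from 1.15% ± 0.0458 to 7.66% ± 2.36 in MATα-playing-a. In the last group replicate 2, low in SSA2, was the highest at 10.4%. The summed FPKM of SSA1 to SSA4 was 11611 ± 1322 before and 12177 ± 1118 after in MATa, and 11569 ± 524 before and 10314 ± 1875 after in MATα-playing-a, ranges that overlapped in both strains.

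**Figure D3:**
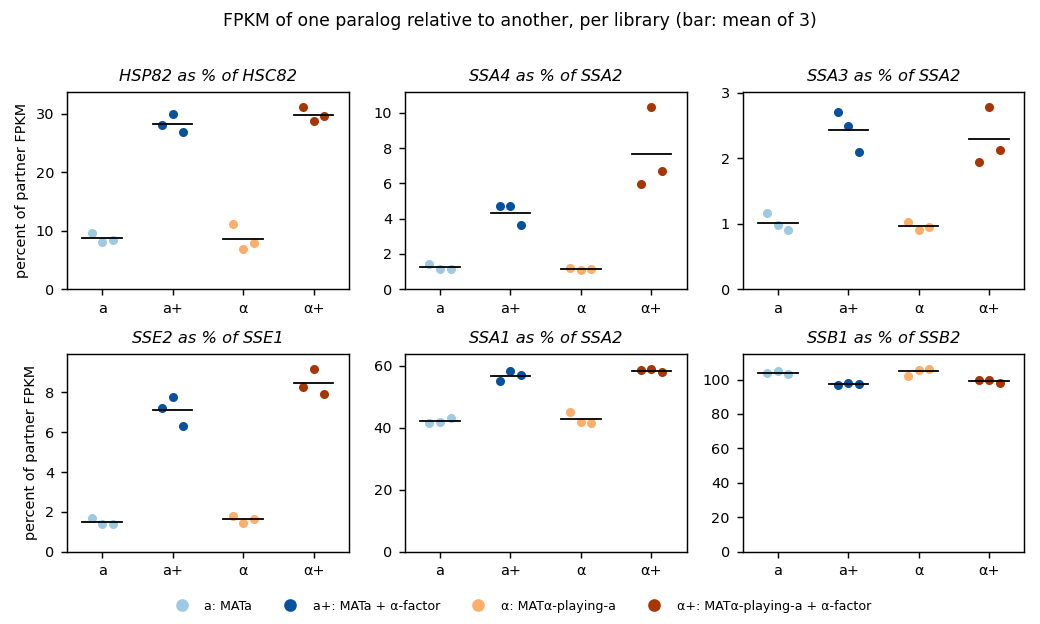
FPKM of 1 gene of a pair as a percent of the other in each library (points), with the mean of 3 (bar), for 6 pairs; a is MATa, α is MATα-playing-a, and + is with α-factor. HSP82 went from means of 8.66% and 8.61% of HSC82 to 28.3% and 29.8%, whereas SSB1 lay between 97.1% and 106% of SSB2.

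Hsp70 exchange factors release ADP from Hsp70. Of the 4 members, 1 rose in both strains and 1 fell in both. SSE2, the inducible Hsp110 gene (YBR169C, chromosome II, 573915 to 575996), was at 56.8, 55.7 and 52.7 FPKM before and 248, 254 and 244 after in MATa. MATα-playing-a cells had 60.7, 57.8 and 60.8 before and 254, 243 and 254 after. It had the lowest standard error of the members that changed by 2-fold, 0.058, and it rose by 2.16 and 2.05 on the log2 scale (adjusted p = 1.42e-10 and 2.24e-10).

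SSE1, the abundant Hsp110 gene (YPL106C, chromosome XVI, 350194 to 352275), was at 3339, 4039 and 3793 FPKM in unstimulated and 3440.3, 3264 and 3849 in stimulated MATa. In MATα-playing-a it was at 3372, 3998 and 3723 before and 3057, 2644 and 3206 after. It did not pass in MATa (-0.081 ± 0.10, adjusted p = 0.499) and was called lower in MATα-playing-a (-0.32 ± 0.10, 0.0153), a call lost with median-ratio rescaling (0.0767) and without stimulated replicate 2 (0.066) or unstimulated replicate 2 (0.0618). SSE2 was 1.49% ± 0.183 of the SSE1 value before and 7.12% ± 0.737 after in MATa, and 1.63% ± 0.177 before and 8.47% ± 0.644 after in MATα-playing-a. FES1, the armadillo-repeat exchange factor of cytosolic Hsp70, did not pass in either strain (0.10 ± 0.14 and 0.16 ± 0.14; adjusted p = 0.528 and 0.325), though in MATα-playing-a it came to 0.27 and passed without replicate 1 of both unstimulated groups (0.0497). The AGGGG letters before SSE2 and the nearest of 3 such matches before SSA4, the inducible genes of these 2 families, are shown in capitals (chrII:576208-576232, minus strand, and chrV:364380-364444, plus strand, R64).
SSE2: tctagaacgtCCCCTtaccaaaaat
SSA4: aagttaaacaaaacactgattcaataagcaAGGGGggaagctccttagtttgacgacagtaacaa

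SNL1 codes for a small membrane-anchored protein with a BAG domain, an exchange factor for Hsp70 at the endoplasmic reticulum and nuclear envelope, and its fall was the single response for which the strain difference passed the test. SNL1 (YIL016W, chromosome IX, 321454 to 321933) was at 635, 629 and 609.8 FPKM in unstimulated MATa and at 134, 104 and 125 in stimulated. MATα-playing-a gave 699, 628 and 628 before and 381, 461 and 378 after. The unstimulated strains overlapped, both strains fell, and every stimulated MATa library was below every stimulated MATα-playing-a library. SNL1 fell by 2.37 ± 0.10 on the log2 scale in MATa, a 5.16-fold fall (adjusted p = 5.67e-09), and by 0.68 ± 0.10 in MATα-playing-a, a 1.60-fold fall (0.000102).

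The difference of the SNL1 responses was 1.68 ± 0.14 (adjusted p = 0.000159), and it passed under each alternative fit tried, with values from 1.58 to 1.76 and adjusted p from 0.000124 to 0.00699. Next to SNL1 on chromosome IX lies BAR1, which starts 408 bases past the end of SNL1 on the same strand. In MATα-playing-a BAR1 was at 28.02, 27.8 and 28.2 FPKM without and 46.4, 54.7 and 51.0 with α-factor, and in MATa it was at 0 throughout. VID28, the neighbour on the other side and other strand, 488 bases away, rose in both strains, by 1.00 ± 0.10 and 0.80 ± 0.10 (adjusted p = 5.75e-06 and 3.36e-05). The part of the BAR1 locus in the SNL1 difference was not tested.

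Few other chaperone genes were called different between the strains. Without α-factor none of the 41 passed the test (limma; 0.953% of all genes did), and 1, CPR6, had an unadjusted p below 0.05 (12.5% of all genes did). With α-factor 3 passed, against 2.21% of all genes (1.56% higher and 0.651% lower; 70.5% of the called genes were higher, or 57.7% with quantile normalisation). SNL1 was higher in MATα-playing-a by 1.74 ± 0.10 (adjusted p = 8.76e-07), SSA4 higher by 0.49 ± 0.084 (0.00958) and SSA3 lower, at -0.39 ± 0.085 (0.0392). The SSA3 call was lost when any of the 6 stimulated libraries was left out (adjusted p from 0.0796 to 0.17) and also without unstimulated MATa replicate 1 (0.0571) or unstimulated MATα-playing-a replicate 3 (0.0654), and with no filter (0.0543). The SSA4 call was lost when only the 6 stimulated libraries were fitted (0.0719).

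As a difference of responses, SNL1 alone passed (0.484% of all genes did). SSA4 came to 0.60 ± 0.12 (adjusted p = 0.0686) and passed with quantile normalisation (0.0457), and SSA3 came to -0.31 ± 0.12 (0.379). The 2 responses of a gene were estimated from separate libraries of each strain, and for the other 40 members a p above the threshold does not show that the strains responded alike.

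**Figure D4:**
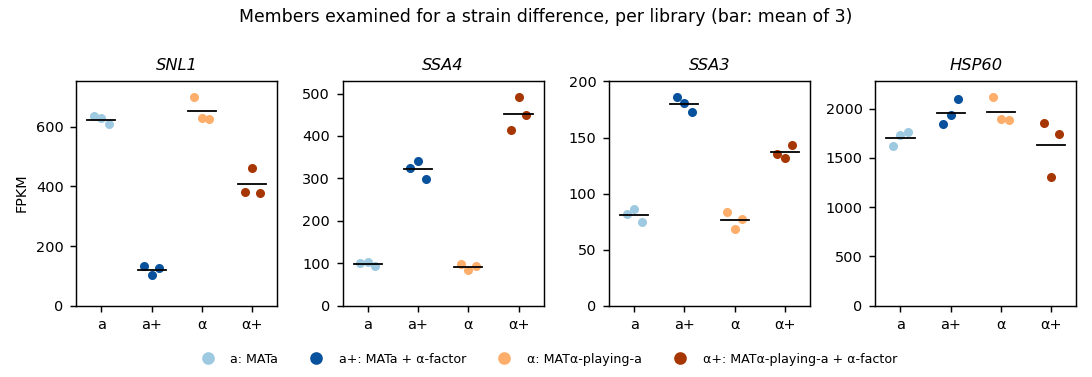
FPKM per library (points) and mean of 3 (bar) of SNL1, SSA4, SSA3 and HSP60, on linear axes from 0; a is MATa, α is MATα-playing-a, and + is with α-factor. Stimulated SNL1 was at 104 to 134 FPKM in MATa and 378 to 461 in MATα-playing-a; HSP60 was higher with α-factor in MATa and lower in MATα-playing-a, a difference that did not pass the test.

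The ribosome-bound chaperones fell together in both strains. SSB1 and SSB2 encode the Hsp70 that meets new chains as they leave the ribosome, and SSZ1 and ZUO1 encode the ribosome-associated complex that activates it. SSB1 (YDL229W, chromosome IV, 44065 to 45906), which overlaps the listed gene YDL228C, was at 8903, 9922 and 9259 FPKM in unstimulated and 6223, 6023 and 6516 in stimulated MATa. The MATα-playing-a values were 8249, 9408 and 9569 before and 5839.7, 5605 and 6301 after. No stimulated library reached the lowest unstimulated one of its strain, and SSB1 fell by 0.58 ± 0.07 and 0.62 ± 0.07 on the log2 scale (adjusted p = 3.1e-05 and 1.89e-05).

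SSB2 (YNL209W, chromosome XIV, 252059 to 253900), 97.4% identical to SSB1 in coding bases, was at 8596, 9466 and 8976 FPKM before and 6407, 6163 and 6681 after in MATa. MATα-playing-a cells had 8079, 8890.4 and 9009.8 before and 5868, 5615 and 6426 after. It fell without overlap, by 0.49 ± 0.07 and 0.54 ± 0.07 (adjusted p = 7.44e-05 and 3.46e-05). SSB1 was 103% to 105% of SSB2 in unstimulated and 97.1% to 97.7% in stimulated MATa. With quantile normalisation both SSB genes kept their sign in MATa but no longer passed (-0.20, adjusted p = 0.0705, and -0.11, 0.343).

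SSZ1 (chromosome VIII, 225525 to 227141) ranged over 2554 to 2643 FPKM in unstimulated and 1676 to 1719.9 in stimulated MATa, and over 2275 to 2555 and 1576 to 1605 in MATα-playing-a. ZUO1 (chromosome VII, 1061852 to 1063153), the J-protein of the complex, ranged over 3189 to 3472 and 2108 to 2316 in MATa, and over 3033 to 3295 and 2020.2 to 2164 in MATα-playing-a. Both fell by 0.58 to 0.62 in each strain (adjusted p from 1.21e-06 to 6.27e-06). The median of the 4 genes was -0.58 in MATa and -0.62 in MATα-playing-a, beside 138 ribosomal protein genes, of which 137 fell in MATa and 127 in MATα-playing-a with medians of -0.64 and -0.47. SSZ1 overlaps the listed gene YHR063W-A, and read strand is not given. None of the 4 had the heat shock or AGGGG letters.

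The 8 subunits of CCT, the ring-shaped chaperonin that folds actin and tubulin, also fell in FPKM, every one in both strains and without overlap. The summed FPKM of a library was lower with α-factor too. As a share of that sum the 8 together were at 0.1575% to 0.168% before and 0.138% to 0.155% after in MATa. In MATα-playing-a they were at 0.164% to 0.186% before and 0.137% to 0.146% after. Their log2 changes ran from -0.51 (CCT5) to -0.28 (CCT4) in MATa, with a median of -0.42, and from -0.61 (CCT3) to -0.24 (CCT4) in MATα-playing-a, with a median of -0.56. CCT5 (chromosome X, 555914 to 557602) was at 1251 to 1313 FPKM before and 845 to 938 after in MATa (adjusted p = 1.85e-05). CCT4 (chromosome IV, 199996 to 201582) was the tightest, at 1569, 1570.3 and 1577 FPKM before and 1299, 1291 and 1293 after in MATa. This fall of CCT4 was a smaller proportion than that of the mean summed FPKM in MATa, from 6623801 to 5411597. In MATα-playing-a CCT4 was at 1473, 1497 and 1537 before and 1261, 1286 and 1257 after.

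The subunits stand in equal numbers in the ring, and their mean FPKM values per gene lay within 1.49-fold of each other in unstimulated MATa (TCP1 lowest at 1057, CCT4 highest at 1572). After α-factor the span was 1.65-fold in MATa and 1.68-fold in MATα-playing-a, from 1.35-fold before in the latter. CCT2, CCT6 and CCT8 overlap another listed gene. None of the 8 had the heat shock letters, and CCT2 alone had AGGGG.

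**Figure D5:**
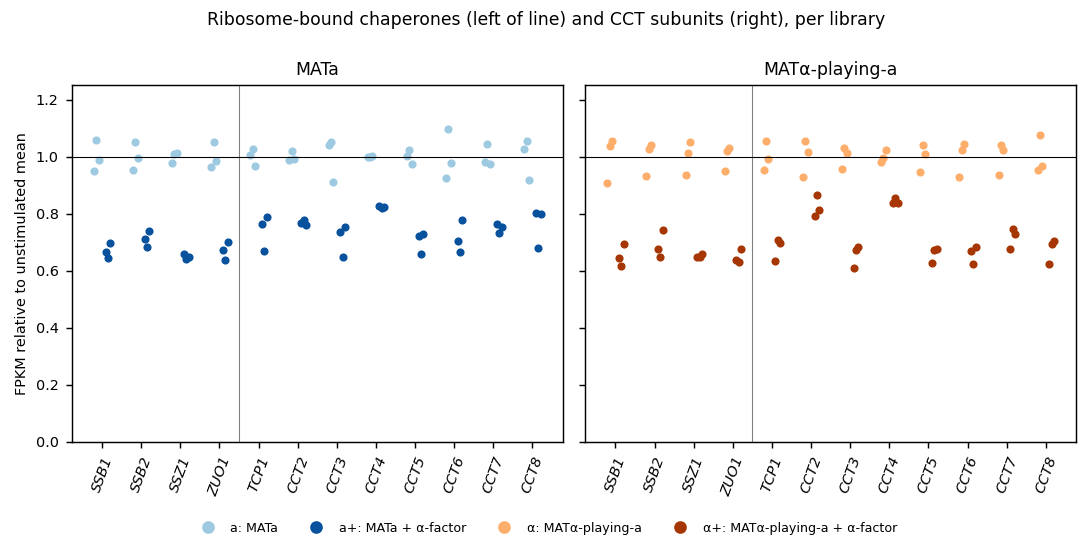
FPKM of the 4 ribosome-bound chaperone genes (left of the grey line) and the 8 CCT subunit genes (right) in each library, divided by the mean of the unstimulated libraries of the same strain, so that 1 is the unstimulated mean. Each point is 1 library; all stimulated points (darker) lie under all unstimulated points (lighter) of the same gene and strain.

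Of the 3 J-proteins, YDJ1 and SIS1 were called in opposite directions. YDJ1, the main cytosolic J-protein (chromosome XIV, 505868 to 507097), ranged over 4032 to 4257 FPKM in unstimulated and 3569 to 3702 in stimulated MATa, and over 3891 to 4059 and 3185 to 3463 in MATα-playing-a. It was called lower, at -0.20 ± 0.051 and -0.26 ± 0.051 (adjusted p = 0.00465 and 0.000654), but in MATa quantile normalisation turned it to 0.023 (adjusted p = 0.731) and median-ratio rescaling ended the call (0.084).

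SIS1, an essential J-protein (chromosome XIV, 618507 to 619565), was at 1687, 1581 and 1381 FPKM before and 1909.8, 2076 and 1960.1 after in MATa. In MATα-playing-a it was at 1578, 983 and 1259 before and 1887, 1653 and 1604 after. It was called higher by 0.36 ± 0.14 and 0.45 ± 0.14 (adjusted p = 0.0451 and 0.0153), without overlap in either strain. In MATa the call was lost without 9 of the 12 libraries, taken one at a time (adjusted p from 0.0505 to 0.16), with no filter (0.0694) and with no intensity trend (0.0581). In MATα-playing-a it was lost with quantile normalisation (0.055), when only the compared libraries were fitted (0.0547) and without stimulated replicate 1 (0.0619) or unstimulated replicate 2 (0.0565). APJ1, a J-protein of the nucleus and cytosol, did not pass in either strain (0.11 ± 0.19 and -0.20 ± 0.19, adjusted p = 0.623 and 0.364); over the alternatives its MATa value ran from -0.040 to 0.31, and it passed there without replicate 1 of both unstimulated groups (0.0389).

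The sorting factors Btn2 and Cur1, which bring misfolded proteins to deposit sites, rose. BTN2 (YGR142W, chromosome VII, 772454 to 773686) was at 195, 119.6 and 129 FPKM before and 397, 437 and 385 after in MATa. MATα-playing-a gave 211, 91.5 and 132 before and 446, 403 and 394 after. Groups did not overlap, and unstimulated replicate 1 was the highest of its group in both strains. BTN2 rose by 1.48 ± 0.25 and 1.59 ± 0.25 (adjusted p = 0.000321 and 0.000179).

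CUR1 (YPR158W, chromosome XVI, 843262 to 844020) was at 272, 112 and 159.6 FPKM before and 404, 402 and 359 after in MATa. The MATα-playing-a values were 227, 123 and 154 before and 404, 425 and 398 after, again with replicate 1 the highest unstimulated library. It rose by 1.19 ± 0.28 and 1.32 ± 0.28 (adjusted p = 0.00267 and 0.00125). BTN2 and SIS1 have heat shock letters and no AGGGG, and CUR1 has neither; the matches are in capitals (chrVII:772100-772137, plus strand, and chrXIV:619877-619919, minus strand, R64).
BTN2: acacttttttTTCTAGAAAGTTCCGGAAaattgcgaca
SIS1: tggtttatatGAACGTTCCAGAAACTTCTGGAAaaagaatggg

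No Hsp90 co-chaperone of the group fell, and 4 of 5 rose in MATa and 4 of 5 in MATα-playing-a. CPR6, a prolyl isomerase (chromosome XII, 572096 to 573211; it overlaps the listed gene YLR217W), ranged over 1318 to 1416 FPKM in unstimulated and 2298 to 2418 in stimulated MATa, and over 1107 to 1327 and 2429 to 2481 in MATα-playing-a. It had the highest change of the 5 in both strains, 0.78 ± 0.067 and 0.99 ± 0.067 (adjusted p = 1.35e-06 and 2.1e-07). AHA1, which stimulates the Hsp90 ATPase (chromosome IV, 892875 to 893927), was at 807 to 925 FPKM before and 1290.4 to 1464 after in MATa, and at 716 to 951 before and 1233 to 1347 after in MATα-playing-a. It rose by 0.67 ± 0.097 and 0.65 ± 0.097 (adjusted p = 8.5e-05 and 0.000104).

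SBA1, the p23 homologue that slows the ATPase, rose by 0.27 ± 0.057 and 0.20 ± 0.057 (adjusted p = 0.00143 and 0.00917). STI1, which links Hsp70 to Hsp90, rose in MATa (0.38 ± 0.088, 0.00262) and did not pass in MATα-playing-a (0.13 ± 0.088, 0.219); the difference was -0.25 ± 0.13 (0.436). In MATα-playing-a STI1 passed with median-ratio rescaling (0.0435) and without unstimulated replicate 1 (0.0365). HCH1, a relative of Aha1, did not pass in MATa (0.15 ± 0.085, 0.141), where it did with median-ratio rescaling (0.24, 0.0253) and without replicate 1 of both unstimulated groups (0.034), and was called higher in MATα-playing-a with overlapping groups (0.22 ± 0.085, 0.0371). The call in MATα-playing-a was lost with quantile normalisation (0.182), when only the compared libraries were fitted (0.0771) and without either of stimulated replicates 1 and 2 or unstimulated replicates 2 and 3 of that strain (adjusted p from 0.0586 to 0.147).

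The mitochondrial matrix chaperones, apart from HSP78, did not pass in MATa, and 2 of 4 were called lower in MATα-playing-a. HSP60, the matrix chaperonin (YLR259C, chromosome XII, 663284 to 665002), was at 1617, 1737 and 1768 FPKM before and 1847, 1934 and 2095 after in MATa. MATα-playing-a cells had 2115, 1891 and 1882 before and 1851, 1302 and 1745 after. Groups did not overlap in either strain, with stimulated libraries higher in MATa (0.20 ± 0.12, adjusted p = 0.152) and lower in MATα-playing-a (-0.28 ± 0.12, 0.0488). The difference of responses was -0.48 ± 0.16 (0.339) and did not pass.

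Without stimulated replicate 2 of MATα-playing-a, the HSP60 value in that strain was -0.12 (adjusted p = 0.176) and the MATa value passed (0.0269). HSP60 also passed in MATa with median-ratio rescaling (0.0473) and when only the compared libraries were fitted (0.0377). The lower call of HSP60 was also lost without each of 9 other libraries in turn (adjusted p from 0.0546 to 0.15), with median-ratio rescaling (-0.18, 0.184), when only the compared libraries were fitted (0.119), with no filter (0.0683) and with no intensity trend (0.0613). SSC1, the matrix Hsp70 that also drives protein import (chromosome X, 519638 to 521602), was at 2307, 2396 and 2005 FPKM before and 1972, 1379 and 1751 after in MATα-playing-a, a change of -0.41 ± 0.14 (0.0239). Its call was lost with median-ratio rescaling (0.0781) and without stimulated replicate 2 (0.105), unstimulated replicate 1 (0.0638) or unstimulated replicate 2 (0.079). In MATa SSC1 gave 0.0091 ± 0.14 (0.963). MDJ1, the J-protein partner of Ssc1, gave 0.18 ± 0.12 and 0.068 ± 0.12, and HSP10, the lid of the Hsp60 ring, gave -0.05 ± 0.12 and 0.037 ± 0.12 (adjusted p from 0.21 to 0.802). Without unstimulated replicate 1 of MATa, MDJ1 came to 0.29 and passed (0.0497), and without replicate 1 of both unstimulated groups it passed in both strains (0.29, 0.0087, and 0.20, 0.0484). The heat shock letters before HSP60 are shown as an example beside a gene that was not called higher in either strain (chrXII:665190-665222, minus strand, R64).
HSP60: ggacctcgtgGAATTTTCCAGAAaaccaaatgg

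HSF1, the gene of the heat shock factor itself (YGL073W, chromosome VII, 368753 to 371254; it overlaps the listed genes YGL074C and YGL072C), was at 180.5, 187 and 205 FPKM before and 191, 196 and 210.4 after in MATa. In MATα-playing-a it was at 189, 189 and 196 before and 196, 174 and 194 after. All groups overlapped and the gene did not pass in either strain (0.062 ± 0.071 and -0.029 ± 0.071, adjusted p = 0.461 and 0.731).

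Response counts were set beside the promoter letters. Over all genes 28.5% rose and 38.1% fell in MATa, and 29.8% and 39.1% in MATα-playing-a. Of the 14 with AGGGG, 8 rose in each strain, 7 of them by at least 2-fold, and 2 fell in MATa and 3 in MATα-playing-a, SNL1 among them, with medians of 0.83 in MATa and 0.69 in MATα-playing-a. Of the 27 without, 7 rose in each strain, 3 by at least 2-fold in MATa and 2 in MATα-playing-a, and 13 fell in MATa and 16 in MATα-playing-a, with medians of -0.11 and -0.28. Of the 13 with the heat shock letters, 7 rose and none fell in MATa, and 6 rose and 3 fell in MATα-playing-a, with medians of 0.36 and 0.16. The 9 with heat shock letters alone had medians of 0.20 and 0.13, the 10 with AGGGG alone 0.22 and 0.13, the 4 with both 1.52 and 1.44, and the 18 with neither -0.41 and -0.51. HSP26, with the highest rise but one in MATa, has AGGGG only, and CUR1, SSA3 and CPR6 rose with neither. These counts are over few genes, several of them paralogs, and carry no test. The split by letters also overlaps the split by role. The 18 with neither include all 4 ribosome-bound chaperone genes and every CCT subunit but CCT2, and the 4 with both include HSP42 and both disaggregases.

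Single libraries moved part of the group. In unstimulated MATa, replicate 1 was the highest library for 18 of 41 members (38.0% of all genes) and the lowest for 14 (34.1%), while replicate 2 was the highest for 19 (33.5%). Replicate 3 of that group was the highest for 4 (28.5%) and the lowest for 20 (28.55%). In unstimulated MATα-playing-a, replicate 1 was the highest for 22 (30.4%) and the lowest for 14 (39.3%), and replicate 2 was the lowest for 23 (37.1%). HSP82, SIS1, APJ1, BTN2 and CUR1 were among the members highest in replicate 1 in both strains. Without replicate 1 of both unstimulated groups 18 members rose and 14 fell in MATa, where APJ1, HCH1 and MDJ1 gained a call and HSC82 lost it. In MATα-playing-a 18 rose and 16 fell, where FES1, MDJ1 and STI1 gained a call and SSA2, SSC1 and HSP60 lost it. Stimulated replicate 2 of MATα-playing-a was the lowest of its group for 20 of 41 members (36.9% of all genes) and the highest for 11 (44.6%); the 20 include SSA1, SSA2, SSE1, SSC1 and HSP60. Without it 14 rose and 15 fell in that strain. Each role with all its members called in both strains, namely small heat shock proteins, disaggregases, Hsp90, ribosome-bound chaperones, sorting factors and CCT, kept its counts in both directions without that library.

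The members' share of summed FPKM was 1.24% to 1.31% in unstimulated and 1.42% to 1.52% in stimulated MATa, and 1.27% to 1.36% and 1.28% to 1.40% in MATα-playing-a, where the ranges overlapped. Ribosome-bound chaperones were the largest role, at 0.349% to 0.384% before and 0.29% to 0.323% after in MATa. Hsp90 co-chaperones were at 0.12% to 0.131% before and 0.201% to 0.206% after in MATa. The summed FPKM itself was lower with α-factor. It was 6572192 to 6666550 before and 5332586 to 5516177 after in MATa, and 5989653 to 6594019 and 5374750 to 5415432 in MATα-playing-a. A share can therefore rise where the FPKM does not. HSF1, not called in either strain, went from a mean share of 0.00288% to 0.00368% in MATa. Some genes called lower in MATa fell by a smaller proportion than the mean summed FPKM, which went from 6623801 to 5411597. HSC82 went from a mean of 6638 to 5813 FPKM, YDJ1 from 4163 to 3628 and CCT4 from 1572 to 1295. In MATα-playing-a the mean sum went from 6224134 to 5395119, and these genes fell by a higher proportion.

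The counts of the following lists stand beside 28.5% of all genes higher and 38.1% lower in MATa, and 29.8% and 39.1% in MATα-playing-a. Of 12 genes for folding in the endoplasmic reticulum lumen, 7 rose and none fell in either strain (median 0.26 in MATa and 0.35 in MATα-playing-a); PDI1, the disulfide isomerase, rose by 0.66 ± 0.085 and 0.66 ± 0.085, and KAR2, the Hsp70 of that compartment, by 0.45 ± 0.12 and 0.40 ± 0.12. Of 8 prefoldin and CCT cofactor genes, which pass actin and tubulin to CCT, 4 fell in MATa and 3 in MATα-playing-a, shares near those of all genes, and none rose. Of the 3 genes of the nascent chain complex at the ribosome, 3 fell in MATa and 2 in MATα-playing-a.

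Of 17 other J-proteins, 2 rose and 7 fell in MATa, and 3 rose and 6 fell in MATα-playing-a, where falls were again about as frequent as over all genes; PAM18, a J-protein of the import motor, fell by 0.78 ± 0.06 and 0.67 ± 0.06. Of 6 other genes of mitochondrial Hsp70 function, 2 rose and 4 fell in MATa, and 1 rose and 4 fell in MATα-playing-a. Of 7 other Hsp90 co-chaperones, 3 rose and 3 fell in each strain: CDC37, the kinase co-chaperone, rose by 0.40 ± 0.046 and 0.40 ± 0.046, while PPT1, a phosphatase bound to Hsp90, fell by 1.00 ± 0.10 and 1.20 ± 0.10. All 15 example targets of Msn2 and Msn4, a list picked with earlier results of these data known, rose in each strain, with medians of 1.81 and 1.83. The 4 genes of the HSP31 family rose as well, but HSP32, HSP33 and SNO4 are near-identical copies whose group means stayed between 0.515 and 15.1 FPKM.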

How the data were processed

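RNA of 12 libraries (4 groups of 3) was sequenced in 1 lane. The authors deposited FPKM values for 7126 genes per library; among the tools in the submitters' processing notes are Cufflinks 0.9.3, TopHat 1.1.4 and CASAVA 1.8.2, and the genome build is not given in the sources used here. FPKM times gene length summed to 5.02 to 6.22 times the total the unit allows, so the values carry a further scaling of unknown source. In MATa this factor was 5.98 to 6.22 in unstimulated and 5.15 to 5.22 in stimulated libraries. In MATα-playing-a it was 5.68 to 6.11 and 5.02 to 5.18. The factor was thus lower with α-factor in both strains, without overlap. The main fit did not rescale for it, and its cause was not tested. No step of whole reads was found, so depth and counting error are unknown. How reads shared by paralogs or overlapping genes were assigned, and the strand, are not given.

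Members and lists were chosen with earlier results of these data known. Values were joined with Python 3.11.15 (pandas 2.3.3, numpy 2.4.6) and entered as log2(FPKM + 1), so that changes of low genes are understated. Genes with a mean of at least 1 FPKM (6608) were fitted in limma 3.58.1 (R 4.3.3) as 4 group means over all 12 libraries, with eBayes and an intensity trend; the procedure was tested on simulated data. The 5 contrasts were each strain's response, the strains against each other (MATα-playing-a less MATa) in either state, and the responses against each other. A call was a Benjamini-Hochberg adjusted p under 0.05, from 2-sided tests of all 6608 genes. Values in every library are given for members that changed by 2-fold, differed between strains or form paralog pairs, and for the regulator, plus SIS1, SSC1, HSP60 and CCT4, added after their values were seen. Alternatives were pseudocounts of 0.1 and 10, no filter and a mean of at least 10 FPKM, 2 rescalings, 2 replicate blocks, fits to the compared libraries, no trend, members with a close paralog left out of the count, and each library left out in turn. Promoter letters came from the R64 reference, in which all 41 members had the coordinates of the files.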

Additional observations from a re-analysis of the deposited data

Results flagged for a closer look

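SNL1 was the 1 member whose response differed between the strains by a test of the difference itself: the response of MATα-playing-a minus that of MATa was 1.68 on the log2 scale (SE 0.14, limma adjusted p = 0.000159), with the gene lower in 3 of 3 stimulated libraries of each strain.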

How the results depend on the processing

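Counts of called members stayed within 1.5 times of the reported ones under each alternative for both responses, at 11 to 18 higher and 11 to 15 lower in MATa and 11 to 18 higher and 14 to 19 lower in MATα-playing-a. Leaving out each library in turn gave 14 to 16 higher and 14 to 15 lower in MATa, 13 to 16 and 15 to 19 in MATα-playing-a, 0 in the strain difference without α-factor, 2 to 3 called with α-factor (2 higher, 0 to 1 lower) and 1 in the difference of responses. With median-ratio rescaling 18 rose and 13 fell in MATa and 16 and 15 in MATα-playing-a, and with quantile normalisation 16 and 11, and 13 and 17. In the strain difference with α-factor the count of lower members was 0 with no filter, with the replicate block by number and without replicate 1 of both unstimulated groups, an alternative chosen after seeing the data. In the same comparison 1 was higher when only the compared libraries were fitted, and with members that have a close paralog left out 1 was called, 1 higher and 0 lower, since SSA3 and SSA4 are among those members. In the difference of responses 2 were called, both higher, with quantile normalisation, the second being SSA4. Of single values, HSC82 and YDJ1 in MATa changed sign with quantile normalisation (0.073 and 0.023); 74 lost and 19 gained a call, and 4497 kept sign and call. Except where named, the cause was not tested.

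Deviations of same-numbered libraries of 1 strain, without and with α-factor, correlated at -0.21 to 0.20. Across the strains, under the same treatment, they correlated at -0.20 to 0.25. Neither kind was above 0.1 in every pair, so the numbers were not taken to pair the libraries. The labels do not say whether the same number means the same culture, so the main fit may leave out a real pairing. With the replicate block by number 15 members rose and 15 fell in MATa, 15 and 18 in MATα-playing-a, 2 were called with α-factor between strains and 1 in the difference of responses. With the replicate block by culture 16 rose and 15 fell in MATa, 14 and 19 in MATα-playing-a, and 1 passed in the difference of responses. A block by culture cannot be set for the strain differences. Depth is unknown, so no limit from counting error can be given.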
